A study of Homo sapiens with 13 samples.

Results

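The small and structural RNAs crosslinked to the splicing factor SRSF2 were taken from a table of HITS-CLIP windows that differed between wild-type SRSF2 (WT) and SRSF2 with the P95H change. A gene was a member when one of its windows carried the transcript class snRNA, snoRNA, scaRNA, misc_RNA, rRNA, miRNA or Mt_tRNA. This gave 80 genes of 2439 in the table and 192 windows of 8100, each 20 or 21 nucleotides long. By name they were 29 copies of 7SK, 12 U snRNAs, 19 box C/D snoRNAs, 1 box H/ACA snoRNA, 2 scaRNAs, 7 copies of 5S rRNA, 3 copies of 7SL, 3 Y RNAs, 2 genes annotated as miRNA, 1 mitochondrial tRNA and 1 other misc_RNA. None of the 80 matched a sequence in the tables used here, so no sequence is printed.

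The cells were HEL, a human erythroleukemia line. They expressed Flag-tagged SRSF2, WT or P95H, from a stable construct controlled by doxycycline, and the labels describe no change to the cells' own SRSF2 gene. HITS-CLIP recovers RNA fixed to a protein by ultraviolet light, here at 400 mJ and through the Flag tag, and covered 4 samples of each genotype treated with doxycycline at 1 µg/ml for 36 hours. The RNA-seq was rRNA-depleted and covered 2 samples of each genotype treated for 48 hours at the same dose, plus a single uninduced P95H sample. The labels do not say that numbered samples came from separate cultures, so p-values measure only the spread between these samples, which may be technical, and they name neither clones nor the promoter of the construct.

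SRSF2 is an SR protein that binds exons and recruits the spliceosome, and P95H lies beside its RNA recognition motif and recurs in myelodysplastic syndromes. The RNAs described here are not messages. U1, U2 and U5 are the RNA cores of the spliceosome, in which U1 pairs with the 5′ splice site, U2 with the branch site and U5 holds the exon ends. The 7SK RNA holds the elongation kinase P-TEFb inactive, and SRSF2 has been reported to join the 7SK complex at promoters. 7SL is the scaffold of the signal recognition particle, Y RNAs bind the Ro60 protein, box C/D and H/ACA snoRNAs guide 2′-O-methylation and pseudouridylation of rRNA, and scaRNAs do the same for snRNAs in Cajal bodies.

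The RNA-seq libraries held 37414093 to 45005605 counts, and 3 counts corresponded to 0.0662 to 0.0800 CPM, which is the TMM-scaled CPM used for RNA levels. The 11 HEL markers of the erythroid and megakaryocytic lines summed to 1744 to 2350 CPM per library. The 7 markers of other lineages summed to 5.85 to 8.52 CPM, of which KRT8 made 5.11 to 7.93, and EPCAM had no count in any library. Mitochondrially encoded protein genes took 1.38% of counts in both replicate 1 libraries and 4.14% to 4.50% in the other 3. Of the 80 members 28 had no RNA-seq count in any library and 31 had a mean of at least 10 counts.

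The first comparison asks how the binding of SRSF2 to these RNAs differs between P95H and WT. Of the 192 member windows, 142 (74.0%) were higher in P95H and 50 were lower in the authors' deposited table, whereas 22.3% of all 8100 windows were higher. Every window of the U snRNAs (49 windows, 12 genes), the 7SK copies (74 windows, 29 genes) and the Y RNAs (3 windows, 3 genes) was higher in P95H. Of the box C/D snoRNA windows 35 of 43 were lower in P95H, as were all windows of the H/ACA snoRNA, the scaRNAs, the miRNA genes, the mitochondrial tRNA and the other misc_RNA. No member had windows in both directions. The authors kept only windows changed by 1 or more on the log2 scale with an adjusted p up to 0.05, so each member differed by construction and the direction and size are what is described here. Windows of one RNA overlap each other and share reads, so they are not replicates, and merging those that overlapped left 58 regions higher and 24 lower. Copies of the same family may also share reads, so the numbers of genes given above are not numbers of separate signals.

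**Figure D1:**
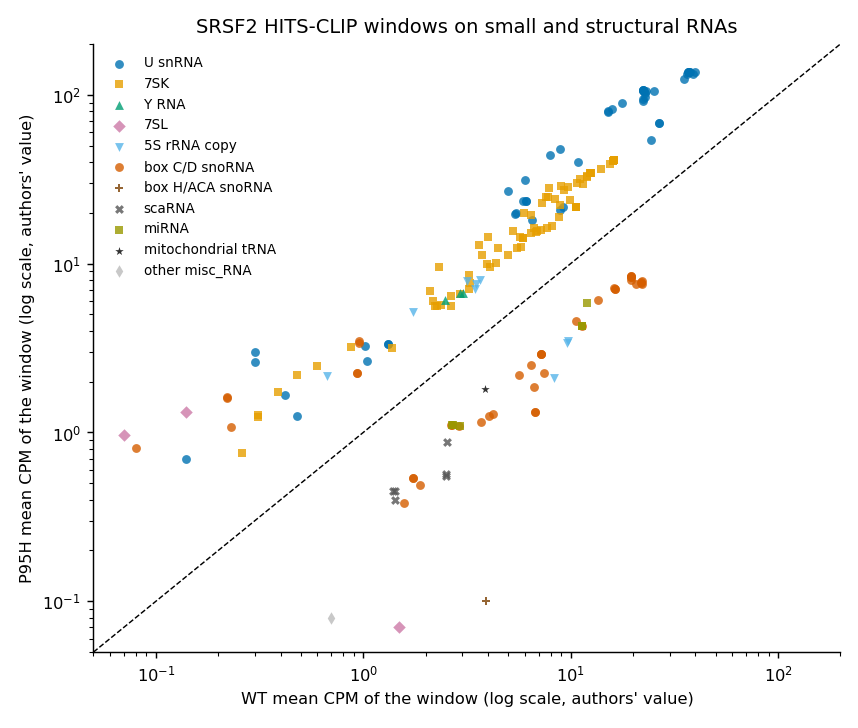
Each point is 1 HITS-CLIP window on a small or structural RNA, with the authors' mean CPM in WT on the x axis and in P95H on the y axis, both on log scales, and the dashed line marks equal values. All 49 U snRNA windows and all 74 windows of 7SK copies lie above the line, and 35 of the 43 box C/D snoRNA windows lie below it.

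Replicate error was large in this assay, and the authors' deposited table gives it as a standard error of the mean (SEM) for each genotype. The ranges of mean ± SEM of the genotypes did not overlap in 58 of the 192 member windows (30.2%), against 31.2% of all windows. By class this held for 39 of 74 windows of 7SK copies, 3 of 49 U snRNA windows, 7 of 43 box C/D snoRNA windows and 1 of 3 Y RNA windows. The SEM also limits how evenly the signal was spread. If it was computed over the 4 samples, the highest sample must hold at least a share of the summed CPM that grows with the ratio of SEM to mean, from 25% when all 4 are equal. In the genotype with the higher mean this least share had a median of 75.5% in U snRNA windows, 71.4% in box C/D snoRNA windows, 47.2% in windows of 7SK copies and 36.1% in Y RNA windows, against 65.7% over all windows. Of the 49 U snRNA windows 34 lay on U5 genes, and in all 34 this share was over 50%. It was over 50% in 6 of 7 U2 windows and 4 of 8 U1 windows. The mean of the other 3 samples then has an upper limit, and in 28 member windows (14.6%) that limit was no higher than the mean of the other genotype, against 20.8% of all windows. Those were 21 box C/D snoRNA windows and 7 U snRNA windows, and no window of a 7SK copy, Y RNA or 5S copy was among them.

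**Figure D2:**
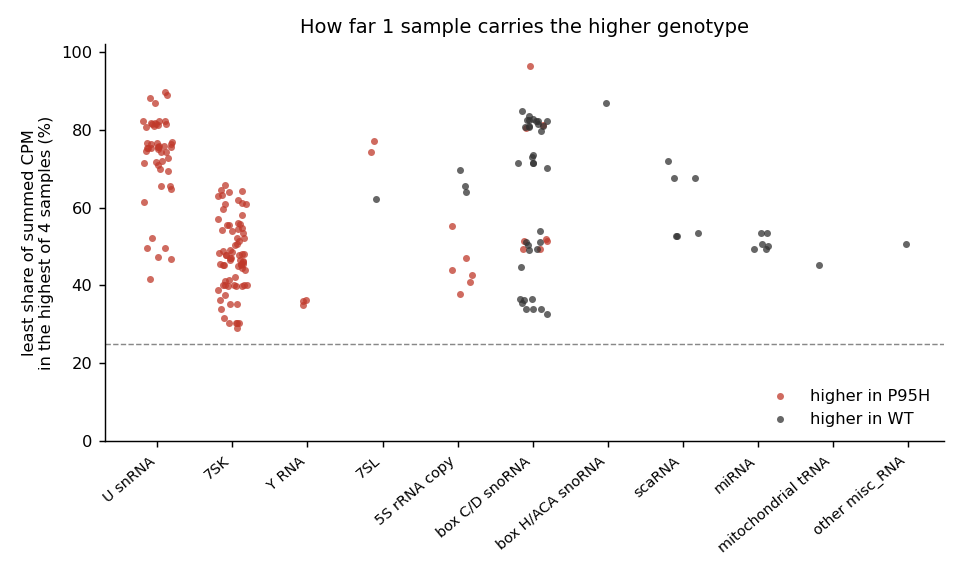
Each point is 1 window, with its RNA class on the x axis and on the y axis the least share (percent) of the summed CPM that the highest of the 4 samples of the higher genotype must hold, derived from the authors' mean and SEM. The dashed line at 25% is an even spread. U snRNA windows, of which 34 of 49 lie on U5 genes, have a median of 75.5% against 47.2% for windows of 7SK copies.

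Among the U snRNAs the U5 genes carried the most signal. RNU5B-1 (ENSG00000200156, chromosome 15, 65304677 to 65304792, plus strand, GRCh38) had 18 windows between nucleotides 22 and 91 of its 116. Positions count from the annotated 5′ end and may be off by 1, since the table does not say whether its starts count from 0. At nucleotides 53 to 73 the authors' deposited table gave 37.0 ± 18.6 CPM (SEM) in WT and 136.6 ± 112.2 CPM in P95H, a log2 change of 1.88 with an authors' adjusted p of 8.89e-05. The highest P95H sample held at least 75.6% of that signal, and the other 3 averaged at most 44.5 CPM. RNU5A-1 (ENSG00000199568, chromosome 15, 65296051 to 65296166, plus strand), a second U5 gene on that chromosome, had 14 windows between nucleotides 22 and 90. Its highest window, at nucleotides 48 to 68, stood at 22.3 ± 10.3 CPM in WT and 106.3 ± 92.0 CPM in P95H in the authors' deposited table (log2 change 2.26, authors' adjusted p 2.76e-06). There the highest P95H sample held at least 81.3%, and the other 3 averaged at most 26.5 CPM. In none of the 32 windows of these U5 genes were the mean ± SEM ranges apart.

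The profile along U5 was alike in both genes. In RNU5B-1 the authors' mean P95H level climbed from 31.3 CPM at nucleotides 22 to 42 to 136.6 CPM at 53 to 73, and was 53.8 CPM at 71 to 91. The WT level followed the same course from 6.03 to 37.0 and 24.3 CPM. The authors' log2 change was therefore largest toward the 5′ side, at 2.45 for nucleotides 29 to 49, and smallest at 1.14 for 71 to 91. RNU5A-1 ran from 2.49 at 29 to 49 to 1.87 at 69 to 90 in the authors' deposited table. The third U5 gene, RNU5E-4P, annotated as a pseudogene by its name, had 2 windows inside the same stretch, and the higher stood at 0.30 ± 0.11 CPM in WT and 2.98 ± 2.17 CPM in P95H (authors' log2 change 3.08). Its 2 windows and 1 of RNU1-117P were the U snRNA windows with mean ± SEM ranges apart.

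**Figure D3:**
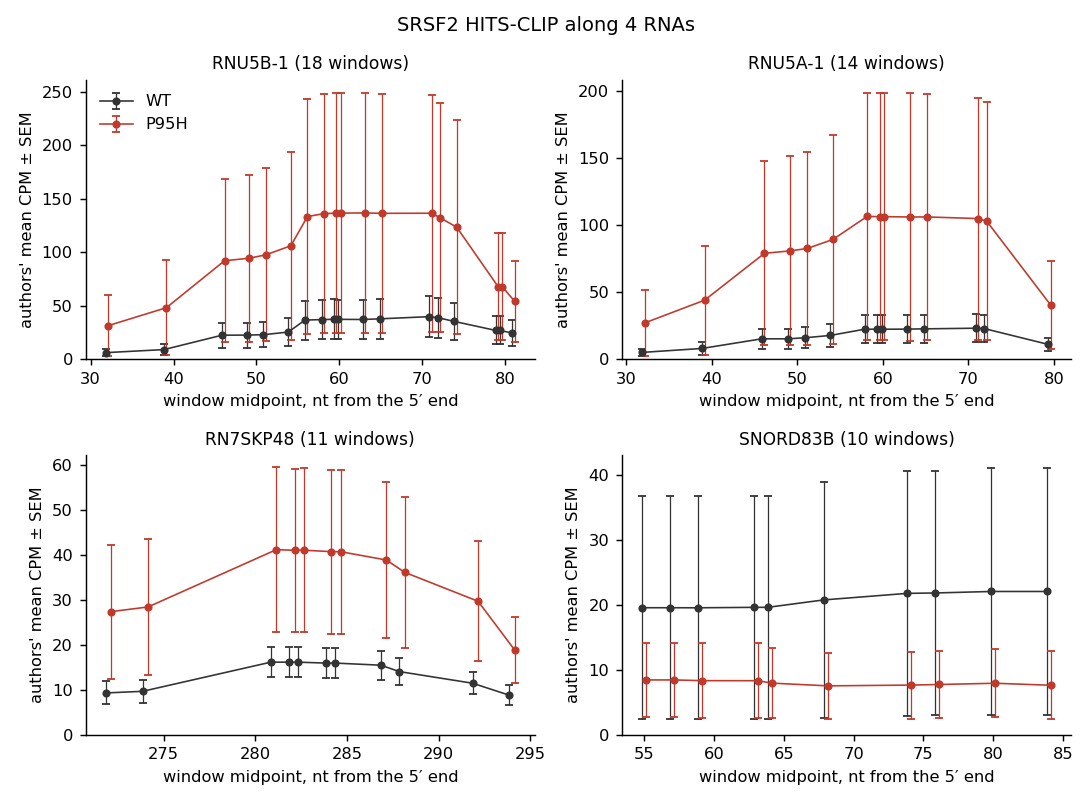
Authors' mean CPM ± SEM of each window (y axis, linear) against the window's midpoint in nucleotides from the annotated 5′ end (x axis), for WT in black and P95H in red, in RNU5B-1, RNU5A-1, the 7SK copy RN7SKP48 and the snoRNA SNORD83B. P95H means lie above WT in the first 3 panels and below in SNORD83B, and the error bars overlap in all windows of the U5 genes and SNORD83B but in none of the 11 windows of RN7SKP48.

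U2 and U1 RNAs were higher in P95H at lower levels. RNU2-1 (ENSG00000274585, chromosome 17, 43233787 to 43233977, minus strand), a U2 gene inside the noncoding LINC00854, had 3 windows between nucleotides 24 and 54 of its 191. The highest stood at 6.12 ± 3.20 CPM in WT and 23.5 ± 18.5 CPM in P95H in the authors' deposited table (log2 change 1.93, authors' adjusted p 7.88e-05). RNU2-4P, a U2 copy inside LINC00910, gave 5.48 ± 2.81 and 19.8 ± 15.3 CPM over nucleotides 31 to 51, and RNU2-6P and RNU2-3P reached 3.27 and 1.25 CPM in P95H. The 5 U1 members were all named as pseudogene copies, with windows between nucleotides 91 and 147. RNU1-11P, inside PHACTR1, stood highest at 9.23 ± 4.96 CPM in WT and 21.7 ± 17.3 CPM in P95H (authors' log2 change 1.25). In that window the other 3 P95H samples averaged at most 7.89 CPM, below the WT mean. RNU1-136P stood at 1.31 ± 0.66 and 3.35 ± 1.92 CPM, and RNU1-89P, RNU1-117P and RNU1-13P reached 2.66, 1.67 and 0.70 CPM in P95H. U1 and U2 windows thus lay in different parts of their RNAs, the U2 windows in the first 88 nucleotides and the U1 windows from nucleotide 91 on.

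The 7SK family was the largest class, and the mean ± SEM ranges were apart in 52.7% of its windows, against 31.2% of all windows. Windows of the same copy overlap and share reads. By copy, 15 of the 29 had at least 1 window with ranges apart, and RN7SKP48 held 11 of the 39 such windows. The 29 genes of this class were copies of 7SK, and RN7SK, the active gene, had no window in the table. The authors' log2 changes lay between 1.02 and 1.97 with a median of 1.35, over authors' mean levels of up to 16.2 CPM in WT and 41.2 CPM in P95H. Those maxima belonged to RN7SKP48 (ENSG00000201901, chromosome 4, 85100496 to 85100823, plus strand), which had 11 windows between nucleotides 262 and 304 of its 328. Its window at nucleotides 271 to 291 stood at 16.2 ± 3.39 CPM in WT and 41.2 ± 18.3 CPM in P95H in the authors' deposited table (log2 change 1.35, authors' adjusted p 0.00593). All 11 windows had mean ± SEM ranges apart. RN7SKP55 (chromosome 1, 244943910 to 244944216, plus strand) had 8 windows between nucleotides 248 and 281, with 12.6 ± 3.33 CPM in WT and 34.5 ± 17.9 CPM in P95H at the highest.

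The next copies by level were RN7SKP230, RN7SKP176, RN7SKP160 and RN7SKP203. RN7SKP230 (chromosome 5, minus strand, opposite MAN2A1) stood at 12.1 ± 3.99 CPM in WT and 33.1 ± 21.2 CPM in P95H, with 3 windows between nucleotides 21 and 59. RN7SKP176, inside PLCG2 on chromosome 16, stood at 9.0 ± 3.75 and 28.7 ± 17.9 CPM, with 5 windows between nucleotides 21 and 78. RN7SKP160 on chromosome 1 had 4 windows between nucleotides 282 and 308, and stood at 7.82 ± 2.10 and 24.9 ± 12.7 CPM in the authors' deposited table (log2 change 1.66, authors' adjusted p 6.75e-04). RN7SKP203 on chromosome 2 stood at 9.89 ± 2.64 and 23.8 ± 14.3 CPM in 1 window at nucleotides 39 to 59. The gene listed as 7SK itself, a copy on chromosome 17, had 5 windows, the highest at 8.09 ± 3.33 and 16.6 ± 9.41 CPM.

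The windows on 7SK copies fell into separate stretches of the RNA, grouped here after the positions were seen and without aligning the copies. The 3′ stretch, nucleotides 248 to 308, held 36 windows in 8 copies, and 32 of them had mean ± SEM ranges apart. A stretch at nucleotides 195 to 233 held 18 windows in 12 copies, of which 2 were apart. The 5′ stretch, nucleotides 20 to 78, held 16 windows in 10 copies, of which 5 were apart, and the remaining 4 windows, at nucleotides 113 to 149 of the copy listed as 7SK, had overlapping ranges. Authors' median log2 changes were 1.36, 1.21, 1.72 and 1.11 in that order. RN7SKP69 had windows in 2 stretches, and so did the copy listed as 7SK. The latter is annotated at 247 nucleotides, against 328 for RN7SKP48, so its numbering need not match that of longer copies. Its 4 windows at 113 to 149 and that at 201 to 221 may therefore belong to other stretches than those given here. In no window of the 3′ stretch did the highest P95H sample have to hold over 50% of the signal. At 195 to 233, 14 of 18 windows passed that share, and 10 of 16 did in the 5′ stretch. Of all windows in the table, 80.1% passed it in their higher genotype.

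Some copies had closely similar values. RN7SKP131, RN7SKP63 and RN7SKP221 each had 1 window at nucleotides 197 to 217, with 2.22, 2.27 and 2.36 CPM in WT and 5.59, 5.62 and 5.72 CPM in P95H in the authors' deposited table. RNU2-1 and RNU2-4P were also close at nucleotides 31 to 51, as were the 3 Y RNAs at their 5′ end. The sources used here do not give the rule by which reads matching several copies were assigned, and a window on a copy may hold reads of RN7SK or of another copy. The levels of single 7SK, U1, U2, U5, 7SL, Y and 5S copies are therefore uncertain, and so is the number of copies bound.

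**Figure D4:**
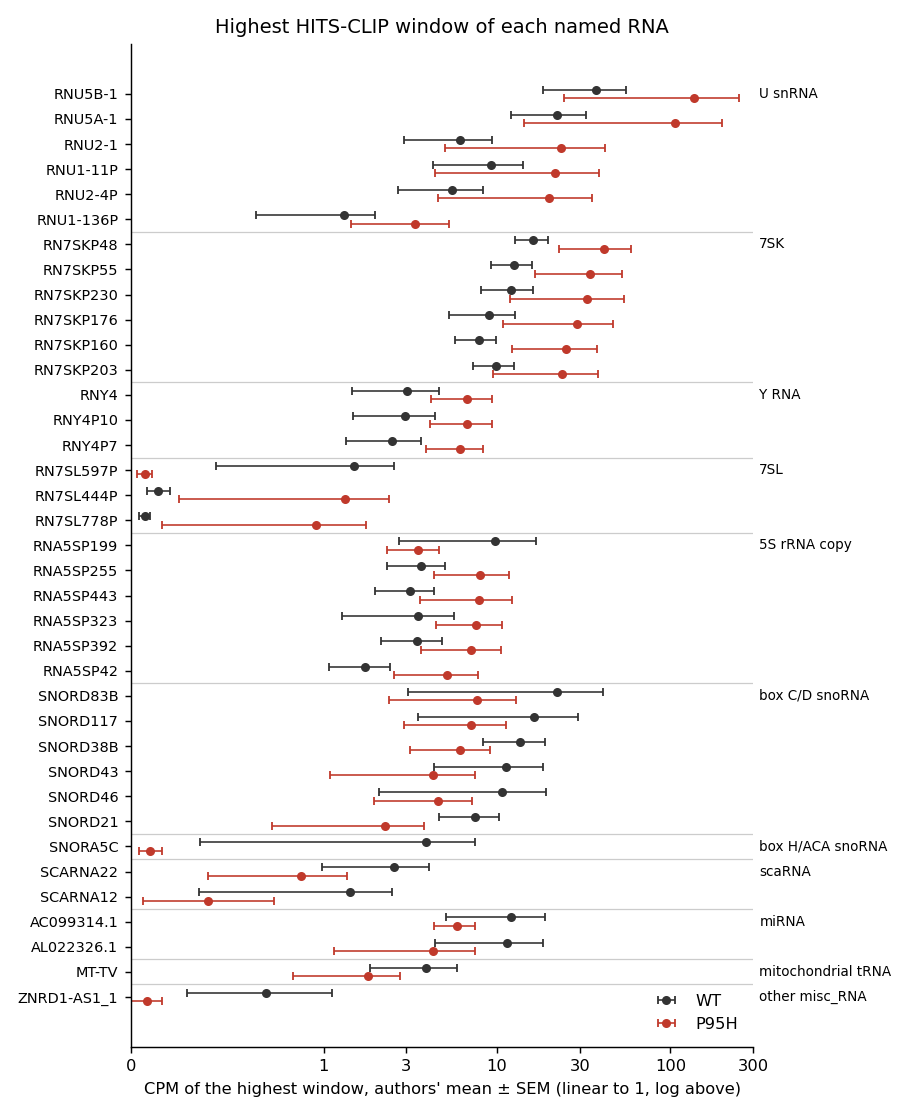
The authors' mean CPM ± SEM of the highest window of each named RNA (x axis, linear up to 1 and logarithmic above) for WT in black and P95H in red, with RNAs on the y axis grouped by class. P95H lies to the right of WT in all U snRNAs, 7SK copies and Y RNAs shown, and to the left in all box C/D snoRNAs shown.

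Windows on the other RNA polymerase III transcripts were fewer. RNY4, a Y RNA gene, and the copies RNY4P10 and RNY4P7 each had 1 window, which covered the first 14 nucleotides of the RNA and reached upstream of the annotated start. WT means of 3.04, 2.94 and 2.49 CPM stood against P95H means of 6.72, 6.71 and 6.11 CPM in the authors' deposited table, with SEM of 1.14 to 1.58 and 2.22 to 2.60 CPM. The ranges were apart in RNY4P7. Of the 5S rRNA copies 6 were higher in P95H, among them RNA5SP443 (3.15 ± 1.17 to 7.87 ± 4.26 CPM), RNA5SP323 (3.48 ± 2.20 to 7.55 ± 3.11 CPM), RNA5SP392 (3.47 ± 1.34 to 7.08 ± 3.43 CPM) and RNA5SP42 (1.74 ± 0.67 to 5.15 ± 2.59 CPM). RNA5SP255 and RNA5SP48 reached 7.99 and 2.16 CPM in P95H. Ranges were apart in RNA5SP42 alone of the 7 copies. RNA5SP199 (chromosome 5, 155845437 to 155845528, plus strand) went the other way, with 3 windows at 9.75 ± 7.02 CPM in WT and 3.48 ± 1.16 CPM in P95H at the highest. Its windows lay between nucleotides 29 and 66, while those of the other 6 copies lay within the first 39 nucleotides.

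The 3 copies of 7SL had 1 window each and low levels. RN7SL444P, inside PI4KB, stood at 0.14 ± 0.06 CPM in WT and 1.32 ± 1.07 CPM in P95H, and RN7SL778P at 0.07 ± 0.03 and 0.96 ± 0.80 CPM in the authors' deposited table. Both windows lay near the 3′ end, at nucleotides 261 to 281 and 257 to 277. RN7SL597P was lower in P95H, at 1.49 ± 1.05 and 0.07 ± 0.04 CPM, with its window at nucleotides 43 to 63 (authors' log2 change -4.23). All 3 had mean ± SEM ranges apart, and in each the highest sample of the higher genotype held at least 62.2%.

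Of the 19 box C/D snoRNAs, 15 were lower in P95H and 4 were higher. By windows 18.6% were higher, near the 22.3% of all windows in the table, so the direction of this class was close to that of the table as a whole. With windows that carry an entry of another class left out, 11 windows were lower and 8 higher. SNORD83B (ENSG00000209480, chromosome 22, 39313819 to 39313911, minus strand), inside the ribosomal protein gene RPL3, had 10 windows over its 3′ part. The highest stood at 22.1 ± 19.0 CPM in WT and 7.62 ± 5.23 CPM in P95H in the authors' deposited table (log2 change -1.50, authors' adjusted p 0.00218). The highest WT sample held at least 80.7% of that signal, and the other 3 averaged at most 5.68 CPM, below the P95H mean. SNORD117, inside DDX39B, which encodes a splicing and export helicase, stood at 16.4 ± 12.9 and 7.06 ± 4.15 CPM, and its other 3 WT samples averaged at most 6.24 CPM. SNORD46 stood at 10.6 ± 8.54 and 4.56 ± 2.60 CPM, with a limit of 3.77 CPM for the other WT samples.

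SNORD38B, SNORD21 and SNORD43 had more even WT samples. In their highest windows the top WT sample held at least 36.3%, 35.5% and 53.9% of the signal. SNORD38B (ENSG00000207421) stood at 13.6 ± 5.28 CPM in WT and 6.10 ± 2.95 CPM in P95H at the highest. Its 2 windows nearer the 5′ end stood at 6.74 ± 2.64 and 1.32 ± 1.27 CPM, with ranges apart (authors' log2 change -2.20, authors' adjusted p 1.26e-05). SNORD21, inside RPL5, stood at 7.43 ± 2.78 and 2.25 ± 1.52 CPM, with ranges apart in 1 of 4 windows. SNORD43, inside RPL3, stood at 11.3 ± 7.03 and 4.26 ± 3.17 CPM. The gene AL022326.1, annotated as a miRNA, overlaps SNORD43 and shares its 4 windows, at 11.4 ± 7.04 and 4.28 ± 3.16 CPM in the shared window, so the pair is 1 signal under 2 names. Of the remaining snoRNAs lower in P95H, SNORD49A had ranges apart. SNORD18C, SNORD50A, SNORD66, SNORD82, SNORD111, SNORD116-26, SNORD62A and SNORD62B did not. The last 2, both inside PRRC2B, had the same 4 deposited values, 1.73 ± 1.02 and 0.54 ± 0.49 CPM.

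The 4 box C/D snoRNAs higher in P95H were SNORD20, SNORD12B, SNORD83A and SNORD7. Some shared a host gene with a snoRNA that was lower. SNORD83A stood at 0.22 ± 0.13 CPM in WT and 1.62 ± 0.97 CPM in P95H, with ranges apart in all 3 windows, while SNORD83B and SNORD43 in the same gene RPL3 were lower in P95H. SNORD20 stood at 0.95 ± 0.61 and 3.49 ± 3.02 CPM, while SNORD82, inside the same nucleolin gene NCL, stood at 3.69 ± 1.89 and 1.15 ± 1.09 CPM. Both SNORD20 and SNORD7 had a P95H signal of which 1 sample held at least 81.2% and 96.3%. The difference between snoRNAs of one host was not tested.

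SNORA5C (ENSG00000201772, chromosome 7, 45104906 to 45105042, minus strand), inside TBRG4, was the member with the largest change. Its window stood at 3.89 ± 3.53 CPM in WT and 0.10 ± 0.06 CPM in P95H in the authors' deposited table (log2 change -4.74, authors' adjusted p 1.86e-12), and 1 WT sample held at least 86.8% of the WT signal. The scaRNA SCARNA22, inside WHSC1, stood at 2.53 ± 1.54 and 0.88 ± 0.48 CPM in its highest window, where the ranges overlapped. Another of its windows stood at 2.52 ± 1.55 and 0.55 ± 0.41 CPM, with ranges apart. SCARNA12, inside PHB2, stood at 1.42 ± 1.07 and 0.40 ± 0.34 CPM. AC099314.1, annotated as a miRNA inside CDH1, stood at 12.0 ± 6.94 and 5.87 ± 1.57 CPM. The mitochondrial valine tRNA MT-TV stood at 3.87 ± 2.01 and 1.80 ± 0.96 CPM, and ZNRD1-AS1_1, a misc_RNA entry opposite the noncoding ZNRD1-AS1, at 0.70 ± 0.41 and 0.08 ± 0.08 CPM. Among these, ranges were apart in SNORA5C, in 2 of 3 windows of SCARNA22 and in ZNRD1-AS1_1.

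Host messages were also bound outside the snoRNAs. Of 19 host genes of the snoRNAs and scaRNAs, 11 had windows elsewhere, 226 in all, of which 27 were higher in P95H and 199 lower in the authors' deposited table. NCL held 190 of these, all lower in P95H. DDX39B and WHSC1 had 6 windows each elsewhere, all higher in P95H, against lower SNORD117 and SCARNA22. RPL5 had 2 windows elsewhere, both higher, against a lower SNORD21, and RPL4 had 5 higher and 3 lower. ZFAS1 and NCL were lower elsewhere while SNORD12B and SNORD20 were higher. SNHG14 (1 window elsewhere) was higher against a lower SNORD116-26, and RPL3 (1 window elsewhere) was lower against a higher SNORD83A. Some hosts went the same way as a snoRNA they hold. NCL was lower with SNORD82, RPL3 (1 window elsewhere, lower) with SNORD83B and SNORD43, PRRC2B (1 window, lower) with SNORD62A and SNORD62B, and EIF4G1 (2 windows, lower) with SNORD66. In all, 38 member windows carried a second entry for a transcript of another class at the same position, most of them host transcripts, and intronic pre-mRNA and the mature snoRNA cannot be told apart there.

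The second comparison asks whether the RNA levels of these genes differed between the same genotypes. Of 22007 genes, 0 (0%) had a Benjamini-Hochberg adjusted p under 0.05 by the quasi-likelihood test of edgeR. Without adjustment 227 genes had p under 0.05 in edgeR and 100 in DESeq2, which also called 0 after adjustment. Of the 80 members 32 had enough counts to be tested, 22 with a positive and 10 with a negative log2 change and a median of 0.10. Over all 22007 genes 11116 changes were positive and the median was 0.002. The libraries of P95H and WT did not overlap in 4 of the 32, against 24.2% of all genes tested. RNY4P7, SNORD116-26 and SNORD62B were higher in both P95H libraries and SNORD111 was lower.

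U5 counts were higher in both replicate 2 libraries than in both replicate 1 libraries, whatever the genotype. RNU5A-1 had 35 and 110 counts in WT replicates 1 and 2, 44 and 110 in P95H replicates 1 and 2, and 25 in the library labelled uninduced. Both replicate 2 libraries were high and the groups overlapped, with a log2 difference of 0.06 (SE 0.65). RNU5B-1 had 35 and 61 counts in WT, 36 and 89 in P95H and 22 in the library labelled uninduced (log2 difference 0.37, SE 0.51). Summed over all 31 U5 genes the level was 10.3 and 24.2 CPM in WT and 10.9 and 27.5 CPM in P95H, a ratio of replicate 2 to replicate 1 of 2.35 and 2.53. U1 genes behaved alike, with 22.1 and 48.2 CPM in WT and 20.9 and 55.03 CPM in P95H. RNU2-1, RNU2-4P and RNU2-6P had no count in any library, which allows up to 0.0800 CPM, and RNU1-11P and RNU1-136P had at most 5 counts in any library. For these genes the RNA-seq gave no level to set beside the binding.

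**Figure D5:**
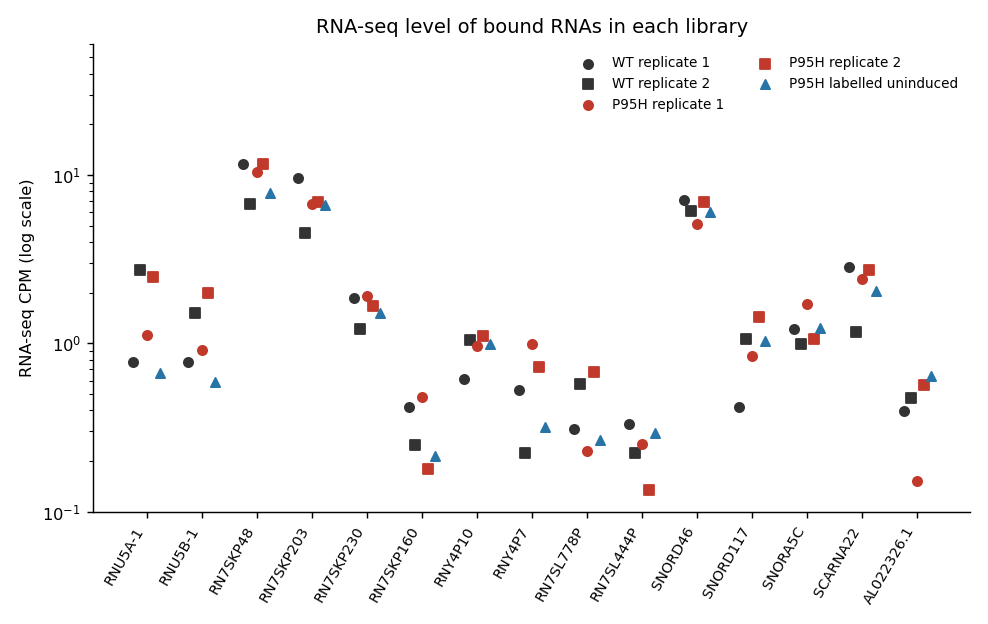
RNA-seq CPM (y axis, log scale) of each named RNA with a mean of at least 10 counts, with 1 point for each of the 5 libraries. WT and P95H libraries overlap for every RNA shown other than RNY4P7, and RNU5A-1 and RNU5B-1 are highest in both replicate 2 libraries.

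RN7SK was among the most abundant RNAs, with 10910 and 6943 CPM in WT, 9399 and 7497 CPM in P95H and 6718 CPM in the library labelled uninduced. The groups overlapped, the highest and the lowest replicated library both being WT. Among the copies RN7SKP80 had the most counts, with 4720 and 1989 in WT, 3078 and 3344 in P95H and 2107 in the library labelled uninduced. RN7SKP48 had 528 and 270 counts in WT, 414 and 516 in P95H and 293 in the library labelled uninduced (log2 difference of P95H from WT 0.28, SE 0.28). RN7SKP203 had 433 and 182 counts in WT, 266 and 308 in P95H and 248 in the library labelled uninduced (log2 difference -0.03, SE 0.35). RN7SKP230 had 84 and 49, 75 and 74, and 57 counts (log2 difference 0.22, SE 0.33), and RN7SKP160 had 19 and 10, 19 and 8, and 8 counts (log2 difference -0.02, SE 0.64). RN7SKP55 and 9 other 7SK members had no count in any library, although RN7SKP55 had the second highest binding level among the copies. The 11 copies tested had log2 differences of -0.15 to 0.28, and WT replicate 1 was the highest of the replicated libraries in the summed copies, at 182.9 CPM against 93.5 to 142.3 CPM.

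Among Y RNAs, RNY4P7 had 24 and 9 counts in WT, 39 and 32 in P95H and 12 in the library labelled uninduced, a log2 difference of 1.17 (SE 0.52) that did not pass edgeR's test (adjusted p 0.9999). Both P95H libraries lay above both WT libraries. RNY4P10 had 28 and 42, 38 and 49, and 37 counts (log2 difference 0.33, SE 0.39), and RNY4 had 5 counts at most. Of the 7SL copies RN7SL444P had 15 and 9 counts in WT, 10 and 6 in P95H and 11 in the library labelled uninduced (log2 difference -0.51, SE 0.60). RN7SL778P had 14 and 23, 9 and 30, and 10 counts (log2 difference 0.07, SE 0.64). All 7SL genes together stood at 205.5 and 70.9 CPM in WT and 132.9 and 88.7 CPM in P95H, so WT replicate 1 was again the highest.

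Box C/D snoRNAs were thinly covered by this RNA-seq. SNORD83B, SNORD38B, SNORD21 and SNORD43 were among 8 of the 19 with no count in any library. SNORD46 had 320 and 247 counts in WT, 201 and 305 in P95H and 225 in the library labelled uninduced (log2 difference -0.13, SE 0.23). SNORD117 had 19 and 43, 33 and 64, and 39 counts (log2 difference 0.64, SE 0.54), so that a lower binding level in P95H did not stand beside a lower count. SNORA5C had 55 and 40 counts in WT, 68 and 47 in P95H and 46 in the library labelled uninduced (log2 difference 0.34, SE 0.37), and SCARNA22 had 129 and 47, 95 and 121, and 77 counts (log2 difference 0.36, SE 0.44). AL022326.1 had 18 and 19, 6 and 25, and 24 counts (log2 difference -0.25, SE 0.65). The host genes named here did not pass either. RPL3, RPL5 and WHSC1 had log2 differences of -0.03 (SE 0.19), -0.002 (SE 0.16) and -0.02 (SE 0.11), DDX39B stood at 0.20 (SE 0.19), PHB2 at -0.12 (SE 0.10) and TBRG4 at -0.11 (SE 0.13).

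Protein partners of these RNAs were read from 10 lists, of which 131 genes were tested. None passed edgeR's test (0 of 131, beside 0% of all genes), and their median log2 difference was -0.01. In the 7SK complex and P-TEFb (7 tested, 4 positive), HEXIM2, an inhibitor of P-TEFb, stood at -0.33 (SE 0.29) and MEPCE, the enzyme that caps 7SK, at -0.20 (SE 0.17). Among Sm, LSm and snRNP-specific proteins (26 tested, 13 positive, median 0.000), LSM11 of the U7 particle stood at -0.25 (SE 0.14) and LSM4 at -0.22 (SE 0.12). Among genes of snRNA transcription, processing and export (20 tested, 14 negative), SNAPC1 and SNAPC2, subunits of the complex that binds snRNA promoters, stood at -0.32 (SE 0.24) and -0.22 (SE 0.14). In RNA polymerase III and its regulators (16 tested, 12 negative), MAF1, its repressor, stood at -0.23 (SE 0.12).

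In the signal recognition particle (8 tested, 4 positive), SRP19 stood at 0.15 (SE 0.14) and SRP9 at -0.13 (SE 0.16). TROVE2, which encodes Ro60, stood at 0.015 (SE 0.13) and SSB, which encodes La, at 0.009 (SE 0.10). Among snoRNP proteins (13 tested, 7 positive), NHP2 of the H/ACA core stood at -0.11 (SE 0.14) and the assembly factor NAF1 at 0.11 (SE 0.11). In RNase P and MRP (9 tested, 3 positive), RPP21 stood at 0.48 (SE 0.53) and RPP14 at 0.48 (SE 0.46). In microRNA processing (9 tested, 2 positive), TARBP2, a partner of Dicer, stood at -0.20 (SE 0.14) and DICER1 at -0.11 (SE 0.11). Among listed snoRNA host genes (21 tested, 14 positive), EIF4A1 stood at 0.26 (SE 0.64) and TAF1D at 0.15 (SE 0.10).

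The third comparison sets doxycycline-treated P95H cells against the uninduced library and asks how these levels differ. No gene passed edgeR's test (0 of 23970 genes, 0%), and 818 had an unadjusted p under 0.05. DESeq2 called 8 genes, with 0 members among them, and gave no adjusted p for 7436 genes. Of these 8, 5 were genes annotated in the classes used for members, all lower in P95H, while 974 of the 23970 genes were so annotated. Of the 34 members tested 28 had a positive difference, against 12029 of all 23970 genes. The median was 0.32, against 0.002 over all genes. RNU5A-1 stood 1.43 (SE 0.87) and RNU5B-1 1.31 (SE 0.69) above that library on the log2 scale, and RN7SKP48 0.50 (SE 0.35). The library labelled uninduced has no replicate. For U5 it lay near both replicate 1 libraries and below both replicate 2 libraries. In its share of mitochondrially encoded protein genes (4.14%) it lay near the replicate 2 libraries (4.5% in WT, 4.3% in P95H) and above both replicate 1 libraries (1.38%). Induction and the difference between replicate numbers therefore cannot be told apart. No WT library was labelled uninduced, so doxycycline itself and the tagged protein it induces cannot be told apart either. The WT libraries, also treated with doxycycline, had means of 1.75 CPM for RNU5A-1 and 1.14 CPM for RNU5B-1. P95H had means of 1.80 and 1.46 CPM, and the library labelled uninduced had 0.67 and 0.59 CPM. The difference of WT from that library was not tested.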

How the data were processed

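HITS-CLIP was compared between 4 WT and 4 P95H samples, and RNA-seq between 2 WT, 2 P95H and 1 uninduced P95H library, with groups and replicate numbers from the labels. Tools in the submitters' processing notes are TopHat2 2.0.14, STAR 2.5.3a and edgeR, with GRCh38.p3 as the build and no roles. Which aligner served which assay, how genes were counted, whether strand was used and what was done with reads matching several copies: not given in the sources used here. Per the file headers, the authors deposited for each HITS-CLIP window a log2 change of P95H over WT, an adjusted p-value (FDR) and a mean CPM with its SEM per genotype. No value per HITS-CLIP sample was used, so those values are described and not retested. RNA-seq values are raw counts per gene as the authors deposited them.

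Windows repeating a position (224 of 8324 entries) were counted once, and classes were read from symbols and transcript classes. The least share of the highest sample was computed as (1 + 3r²)/4, with r the ratio of SEM to mean. Counts were tested with edgeR 4.0.16 under R 4.3.3, with limma 3.58.1 beside it, using filterByExpr, TMM and the quasi-likelihood test on group alone, two-sided, Benjamini-Hochberg over all genes. P95H against WT used 4 libraries and P95H against uninduced all 5. The script was tested on simulated data. Python 3.11.15, pandas 2.3.3 and matplotlib 3.10.9 made the tables and figures. A value at 0 counts allows up to 3 counts, for counting error only.

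Alternatives were DESeq2 1.42.0, DESeq2 size factors, no filter, a mean count of at least 10, small RNA classes left out of the library sizes, a replicate block, and leaving out each library. For HITS-CLIP they were an adjusted p of at most 0.01, a log2 change of at least 2, every entry counted, merged regions, windows with no entry of another class, and a higher level. The members and the lists of 132 matched symbols of 137 were chosen with earlier results of these data known. Named were the up to 6 RNAs of each class with the highest mean CPM, those of them with at least 10 counts on average in the RNA-seq, up to 4 members per list past the test or the 2 with the largest absolute change, and host genes. Other members named, such as RNU5E-4P, the 3 7SK copies with similar values and the snoRNAs higher in P95H, were chosen after their values were seen. For 1 list a single gene is named, and 2 genes with what rests on them are not reported here. The planned content of short motifs in the windows was not computed, since no genome of this build was used here.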

Additional observations from a re-analysis of the deposited data

How the results depend on the processing

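The authors' adjusted p at most 0.01 left 96 windows higher and 29 lower in 52 genes, and an absolute log2 change of at least 2 left 27, 7 and 13. Merged regions numbered 58 higher and 24 lower, or 61 and 29 when 10 nucleotides had to overlap, and windows with no entry of another class left 22 lower. Requiring the larger mean CPM to reach the median of all windows left 114, 35 and 52. In P95H against WT edgeR called 15 genes with no filter on low counts (2 up, 13 down) and 84 with a replicate block (41 up, 43 down), no member among the 32 tested in the block. Genes of the small RNA classes, 666 of the 22007 tested in the block, made 1 up and 6 down there. With no filter they made 0 up and 3 down, and were 3329 of 38948 genes. Against the library labelled uninduced, the calls were 8 with DESeq2, 92 with no filter, 866 in the replicate block with that library beside replicate 2 and 3685 beside replicate 1. Beside replicate 2 the block called 4 of 34 members, against 866 of 23970 genes. These were RNU5A-1 (2.02), RNU5B-1 (1.74), RNU5E-4P (1.45) and RNU1-13P (1.76), all up. Beside replicate 1 it called 4 of 34 members, against 3685 of 23970 genes. RN7SKP48 (0.67), RN7SKP80 (0.75) and RNY4P7 (1.75) were up and SNORD83A (-0.90) was down. As a check of the pairing, deviations from the group means correlated between libraries of one number (r = 0.618 across 22007 genes, which are not independent), but the labels do not say what a number shares, and with 2 numbers this does not settle a pairing. Leaving out any 1 library called 0 genes in either comparison, and under every alternative run for P95H against WT the number of members called was 0.

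Of 43 log2 differences printed, 19 kept their direction under every alternative run, 21 turned only when a library was left out and 3 turned otherwise. Those 3 were near 0: RN7SKP203 (0.041) and RPL5 (0.0015) turned positive in the replicate block and SSB (-0.00013 with DESeq2 size factors, -0.00015 with DESeq2) turned negative; the cause was not tested. Leaving out 1 library gave ranges of -0.074 to 0.73 for RN7SKP48, -0.055 to 0.56 for RN7SKP230, -0.48 to 0.61 for RN7SKP203, -0.88 to 0.52 for RN7SKP160, -0.64 to 1.22 for RNU5A-1, -0.32 to 0.92 for RNU5B-1, -0.0011 to 0.74 for RNY4P10, -0.93 to 0.63 for RN7SL778P, -0.37 to 0.065 for SNORD46, -0.054 to 0.64 for SNORA5C, -0.15 to 1.15 for SCARNA22, -1.49 to 0.38 for AL022326.1, -0.40 to 0.029 for MEPCE, -0.32 to 0.025 for SRP9, -0.11 to 0.11 for TROVE2, -0.048 to 0.055 for SSB, -0.27 to 0.058 for NHP2, -0.15 to 1.10 for RPP21, -0.73 to 1.30 for EIF4A1, -0.078 to 0.43 for DDX39B, -0.23 to 0.18 for RPL3, -0.16 to 0.16 for RPL5, -0.27 to 0.025 for TBRG4 and -0.077 to 0.025 for WHSC1. Leaving out a library leaves 1 group with a single sample, which is assumed to vary like the other group. Members with no count, 28 of 80, could not be compared in the RNA-seq, and why they had none was not tested.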

Other observations

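RNU11 and RNU12 encode the U11 and U12 RNAs of the minor spliceosome, which removes a rare class of introns, and were outside the rule because their transcripts are annotated as lincRNA. RNU11 had 2 windows higher in P95H in the authors' deposited table, at 1.65 ± 0.07 CPM (SEM) in WT and 5.32 ± 1.88 CPM in P95H in the first and at 0.82 ± 0.39 and 4.33 ± 1.98 CPM in the second. Both had mean ± SEM ranges apart, as had 3 of 49 windows of the major U snRNAs and 31.2% of all windows. The 2 RNU11 windows overlap each other, so they are not separate signals. RNU12 had 3 windows higher in P95H, the highest at 11.0 ± 4.50 CPM in WT and 23.9 ± 12.5 CPM in P95H, with overlapping ranges. RNU12 had 25 and 49 RNA-seq counts in WT, 26 and 49 in P95H and 23 in the library labelled uninduced, so that the replicate 2 libraries were high as for U5, and RNU11 had none in any library.

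RN7SL1, a 7SL gene with no window in the table, had 6229 and 881 counts in WT, 2316 and 1534 in P95H and 1313 in the library labelled uninduced. The U3 snoRNA genes, which act in rRNA cleavage, summed to 2298 and 1307 CPM in WT and 1206 and 1726 CPM in P95H. All Y RNA genes summed to 15.4 and 8.75 CPM in WT and 14.9 and 12.3 CPM in P95H. In CPM the WT libraries lay on both sides of at least 1 P95H library for RN7SL1, U3 and the Y RNAs alike.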
